A study of Mus musculus with 4 samples.

Results

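The C2H2 zinc finger genes expressed in primary mouse cortical culture were taken as the protein-coding genes named Zfp plus a number in GENCODE vM21 that reached 1 TPM (a length-corrected share of all transcripts) in at least 2 of 4 libraries. These genes were chosen by their names and by these TPM values, without regard to the group of a library. The rule gave 298 genes out of 365 genes of that name pattern and out of 37437 genes in the files. The culture was infected with adeno-associated virus for knockdown of CTCF (shCTCF, 2 libraries) or, as control, of lacZ (shLAC, 2 libraries), a bacterial gene with no mouse counterpart. All 4 libraries came from virus-infected cultures, and the extraction protocol calls the cells cultured cortical neurons. The sources used here do not give strain, age of the animals or time after infection. Whether replicates are separate cultures is not stated by any label. The p-values thus reflect the spread between 2 libraries a group, possibly a technical one. The comparison addressed here is which zinc finger genes differed in level after knockdown of CTCF.

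A C2H2 zinc finger is a short protein module in which a pair of cysteines and a pair of histidines hold a zinc ion, and arrays of such fingers read DNA sequence. CTCF itself is a protein of this class. In mammals the largest branch of the family adds a KRAB domain, which recruits the corepressor TRIM28 (KAP1) and, through it, the histone methyltransferase SETDB1 and heterochromatin proteins, and many of its members silence transposable elements. KRAB zinc finger genes arose by repeated duplication and lie in clusters of similar copies along the chromosomes. The name Zfp was given to mouse genes by such motifs and covers proteins with unrelated functions, from imprinting factors to RNA-binding proteins and ubiquitin ligases.

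The knockdown was visible in its target. Ctcf (ENSMUSG00000005698) was at 3.56 TPM in each shCTCF library, against 8.49 and 7.32 TPM in the shLAC libraries. Its log2 fold change was -1.13 with a standard error (SE) of 0.06 and an adjusted p of 0.0177 (limma). Between 12736 and 12839 genes reached 1 TPM in the shCTCF libraries, against 12189 and 12681 in the shLAC libraries. Depth cannot be read from TPM values and is unknown here, and counting intervals are left out. A set of 13 genes that were more than 5 times higher in shLAC replicate 2 than in any other library held 20.2% of all TPM in shLAC replicate 2 and 0.405% to 1.86% in the other 3 libraries, which lowers every other gene's TPM in shLAC replicate 2. Levels were therefore compared as scaled TPM, in which each library was divided by its median ratio to the geometric mean of the 4 libraries, and fold changes are of log2(scaled TPM + 1), which understates those of low genes. Without scaling, the median log2 fold change of all 12816 tested genes was 0.17, against -0.0004 with it. Of the marker lists, that of astrocytes had a median log2 fold change of -0.29, with 6 of 6 genes negative and summed scaled levels of 87.0 and 71.8 TPM in the shCTCF libraries against 109.9 and 95.5 TPM in the shLAC libraries. The 6 neuronal markers summed to 962 and 940.2 scaled TPM in shCTCF, against 931 and 921 in shLAC, with a median of 0.10 and 1 negative. The summed deposited TPM of 5 microglial markers was 0.63 and 0.59 in shCTCF and 0.49 and 0.67 in shLAC, and that of 4 endothelial markers stayed below 1 in every library. In bulk RNA, fewer cells of a type and less RNA per cell cannot be told apart, and the part of cell composition in the zinc finger values was not tested.

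These 3 sequences are shown first because the clearest difference among the zinc finger genes rests on near-identical copies. They are the plus-strand coding windows of 101 bases, the read length, at corresponding places of the chromosome 4 genes Zfp991 (chr4:147178793-147178893), Zfp992 (chr4:146466449-146466549) and Zfp993 (chr4:146657846-146657946) in GRCm38, taken from GENCODE vM21 transcripts. Capitals mark the bases that differ from Zfp991.
Zfp991: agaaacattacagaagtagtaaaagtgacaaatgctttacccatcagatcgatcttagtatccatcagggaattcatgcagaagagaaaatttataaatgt
Zfp992: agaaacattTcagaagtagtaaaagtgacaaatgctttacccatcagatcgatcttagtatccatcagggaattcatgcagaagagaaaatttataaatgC
Zfp993: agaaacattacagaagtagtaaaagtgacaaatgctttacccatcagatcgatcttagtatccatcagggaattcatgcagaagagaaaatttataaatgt
Zfp992 differed from Zfp991 at 2 of the 101 bases and Zfp993 at 0. A read from this window cannot tell Zfp993 from Zfp991, and it separates Zfp992 from them by 2 bases. Over the whole coding sequence of 1719 bases, Zfp991 and Zfp992 differed at 8 bases (99.5% identity), 947 of 1619 windows of 101 bases were identical (58.5%), and no window held more than 2 differences.

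Zfp991 and Zfp992, 2 KRAB zinc finger genes with 11 finger motifs each, were the members that fell in the fit over all tested genes. Zfp991 (ENSMUSG00000067916, chromosome 4, 147132038 to 147180579, + strand) was at 2.73 and 2.33 TPM in shCTCF, against 5.27 and 4.32 TPM in shLAC. Its scaled level averaged 2.35 ± 0.193 in shCTCF and 5.12 ± 0.095 in shLAC (SD, n = 2 each), which is 45.9% of the control. The groups did not overlap, and the log2 fold change was -0.87 (SE 0.07, adjusted p = 0.0352 with limma, as for all adjusted p-values below). Zfp992 (ENSMUSG00000070605, chromosome 4, 146449023 to 146470292, + strand) was at 1.69 and 1.56 TPM in shCTCF, against 3.06 and 2.62 TPM in shLAC. Here too each shCTCF value was lower than each shLAC value, with a scaled level at 49.7% of the control and a log2 fold change of -0.69 (SE 0.07, adjusted p = 0.0409). Against these 2 lower calls and 0 higher calls among 298 genes stood 0.679% lower and 0.367% higher calls among all tested genes. At an unadjusted p below 0.05, 15 members were higher and 26 lower, where 20.0% of all tested genes passed in either direction.

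Each of these 2 calls was lost when any 1 library was left out. The adjusted p then lay between 0.0672 and 0.195 for Zfp991 and between 0.0754 and 0.294 for Zfp992, while the log2 fold changes stayed between -0.92 and -0.81 and between -0.72 and -0.66. Without a filter on low values, adjusted p was 0.0964 and 0.122, and with the replicate number as a block it was 0.0896 and 0.0945. The number of members called under these settings is read against all genes. Without shCTCF replicate 1, shCTCF replicate 2 and shLAC replicate 2, 0 members were called, where 0.0702%, 0.421% and 0.203% of all tested genes were called in either direction, and without shLAC replicate 1 it was 1 member and 0.788% of genes. With the replicate number as a block 0 members were called, against 0.109% of genes in either direction. Without a filter 0 members were called, where 0.0428% of genes were higher and 0.0535% lower. Among genes with a mean of at least 2 TPM, Zfp991 was the 1 member called, where 0.317% of genes were higher and 0.624% lower. At an adjusted p below 0.1, 3 members were higher and 4 lower, where 1.75% of all tested genes were higher and 2.44% lower. In a fit restricted to 11280 protein-coding genes of at least 300 nucleotides (the coding-gene fit), adjusted p was 0.00669 for Zfp991 and 0.00856 for Zfp992. There it stayed below 0.05 without any 1 library, with highest values of 0.0307 and 0.0437 without shCTCF replicate 2.

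Because their reads are shared, the copies were also summed. Of all 101-base windows in the transcripts of Zfp991, 70.1% occurred in other genes, and the share was 28.4% for Zfp992 and 71.6% for Zfp993. Zfp993, with 2 finger motifs in its annotated protein, was at 1.28 and 1.41 TPM in shCTCF, against 1.07 and 0.45 TPM in shLAC, with a log2 fold change of 0.35 (SE 0.15, adjusted p = 0.303). The summed scaled TPM of Zfp991, Zfp992 and Zfp993 was 5.20 and 5.04 in shCTCF, against 9.02 and 8.88 in shLAC, or 57.2% of the control. The groups of this sum did not overlap. TPM is corrected for length, and the coding sequence has 1719 bases in Zfp991 and Zfp992 and 940 in Zfp993. The sum can thus still change with how reads were split among these 3 genes. The values of each gene and of their sum are uncertain, since the most similar annotated copy of Zfp991, Znf41-ps, was not used here.

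**Figure D1:**
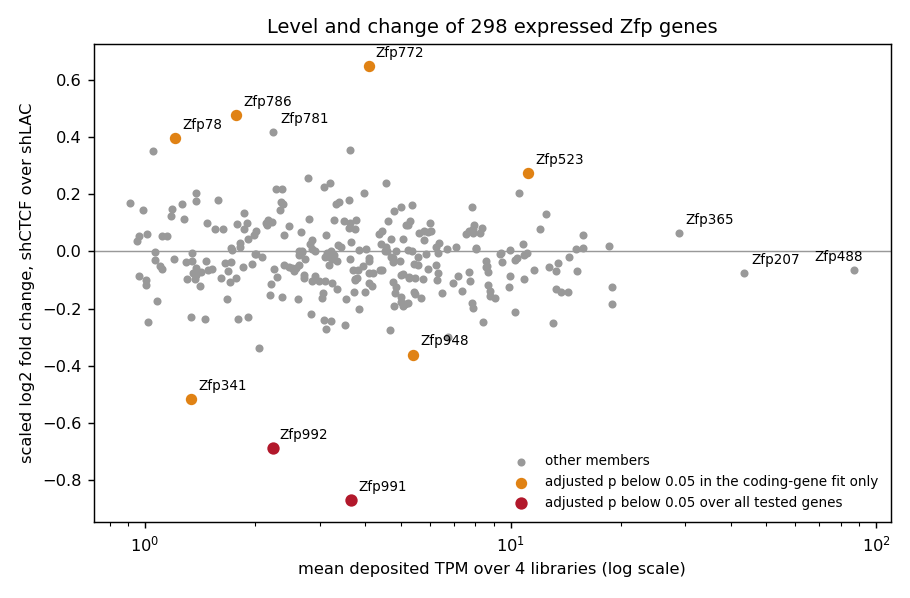
Each point is 1 of the 298 expressed Zfp genes, with its mean deposited TPM over 4 libraries on a log axis and its scaled log2 fold change of shCTCF over shLAC on the vertical axis. Most genes lie near 0, Zfp991 and Zfp992 stand lowest, and Zfp772 stands highest at 0.65.

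As a group the zinc finger genes were expressed at low levels and differed little between the groups. Their median level was 3.69 TPM, against 7.13 TPM for the other tested protein-coding genes. Of the 298, 30 averaged 10 TPM or more, 200 lay between 2 and 10 TPM and 68 below 2 TPM. Summed over all members, scaled TPM was 1539 and 1504 in shCTCF, against 1548 and 1582 in shLAC, or 97.2% of the control. The median log2 fold change was -0.03, against -0.0004 for all tested genes, and 175 members (58.7%) were negative, against 50.1% of all tested genes. As deposited, 36 members (12.1%) were negative, against 13.0% of all tested genes, and 139 of the 175 had the opposite sign on that scale. Only 17 members (5.70%) exceeded an absolute log2 fold change of 0.25, against 12.6% of all tested genes. The median absolute log2 fold change of the members was 0.0821, against 0.0929 for all tested genes. The median gap between the shCTCF libraries was 0.0665 in members and 0.0698 in all tested genes. Between the shLAC libraries it was 0.0756 and 0.08. A gap compares single libraries and a fold change compares means of 2, so gaps and fold changes are unlike measures. The groups were separate and higher in shCTCF in 58 members and lower in 85, where 26.9% of all tested genes lay above and 26.1% below.

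The expression threshold shaped the list at its lower edge. In all 4 libraries 275 members reached 1 TPM, in 3 libraries 13 and in 2 libraries 10. Through both shCTCF libraries alone passed 5 genes (Zfp775, Zfp853, Zfp566, Zfp628 and Zfp78), and through both shLAC libraries alone Zfp52. Zfp853 was just inside, with 1.25 and 1 TPM in shCTCF against 0.95 and 0.84 TPM in shLAC. Zfp560 was just outside, with 0.99 and 0.86 TPM in shCTCF against 1.05 and 0.88 TPM in shLAC. Zfp967 and Zfp969 were also just outside, and the files list the same 4 values for both. Of the 67 genes that did not pass, 1 was listed at 0 in all 4 libraries. Zfp36, a well-known RNA-destabilising protein with CCCH rather than C2H2 fingers, was among them at 0.13 and 0.08 TPM in shCTCF and 0.08 and 0.21 TPM in shLAC.

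The annotated proteins mostly bore out the name. At least 1 C2H2 motif (written as a search for the cysteine and histidine spacing in the translated coding sequence) was found in 292 members, with a median of 11 and a maximum of 37 in Zfp142. None was found in Zfp330, Zfp365, Zfp781, Zfp839, Zfp935 and Zfp972. The letters of the KRAB core were found in 121 members, whose median log2 fold change was -0.0291 with 70 negative. They were not found in 177 members, Zfp57 and Zfp445 among them, whose median was -0.025 with 105 negative. The search took fixed letters near the start of the longest translated protein of a gene. A KRAB domain with other letters is missed, so the 177 are not shown to lack the domain. The median level was 3.09 TPM with the core and 4.46 TPM without it. The 53 members with 16 or more motifs had a median of -0.07 with 39 negative, and the 104 with 11 to 15 motifs had -0.0224 with 61 negative. In the 86 members with 6 to 10 motifs the median was -0.0016 with 43 negative, and in the 55 with 5 or fewer it was -0.0344 with 32 negative. These classes were compared by their counts alone.

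Above the control, no member passed in the fit over all tested genes. In the coding-gene fit 4 members were called higher (Zfp772, Zfp786, Zfp78 and Zfp523) and 4 lower (Zfp991, Zfp992, Zfp341 and Zfp948), where 2.15% of coding genes were called higher and 2.91% lower. On TPM as deposited, Zfp772, Zfp786 and Zfp78 were called higher and Zfp991 and Zfp992 lower, against 1.92% and 0.905% of all tested genes. Without shLAC replicate 1 the fit over all genes called Zfp781 alone higher (0.289% of all genes).

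The coding-gene fit itself varied with the libraries. It called 1 member higher and 2 lower without shCTCF replicate 1 (2.34% of coding genes in either direction), 0 and 2 without shCTCF replicate 2 (1.19%), 7 and 9 without shLAC replicate 1 (9.58%), and 7 and 7 without shLAC replicate 2 (8.71%). With the replicate number as a block it called 5 and 8 (9.89%). Zfp772, a KRAB zinc finger gene (ENSMUSG00000066838, chromosome 7, 7202117 to 7209998, − strand), was at 5.68 and 5.21 TPM in shCTCF, against 3.28 and 2.17 TPM in shLAC. The groups were well apart, with a log2 fold change of 0.65 (SE 0.08) and adjusted p of 0.0142 in the coding-gene fit, against 0.0654 over all tested genes. Without shCTCF replicate 2 its adjusted p in the coding-gene fit was 0.0585.

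Zfp786, also with a KRAB core (chromosome 6, 47819266 to 47830867, − strand), was at 2.36 and 2.32 TPM in shCTCF, against 1.31 and 1.09 TPM in shLAC, with no overlap. Its log2 fold change in the coding-gene fit was 0.48 (SE 0.07, adjusted p = 0.0196), and adjusted p was 0.0652 over all tested genes. Zfp78 (chromosome 7, 6363280 to 6382605, + strand) was at 1.63 and 1.53 TPM in shCTCF, against 0.98 and 0.68 TPM in shLAC (coding-gene log2 fold change 0.40, SE 0.08, adjusted p = 0.0403). It is one of the genes that passed the expression threshold only through the shCTCF libraries, so its direction follows in part from its selection. Zfp523, the mouse counterpart of human ZNF76 and a relative of Zfp143, was at 13.5 and 12.7 TPM in shCTCF, against 10.1 and 8.45 TPM in shLAC (coding-gene log2 fold change 0.28, SE 0.05, adjusted p = 0.0417). Over all tested genes adjusted p was 0.103 for Zfp78 and 0.0951 for Zfp523. These 3 calls were lost without shCTCF replicate 1 (adjusted p 0.0729, 0.14 and 0.144) and without shCTCF replicate 2 (0.114, 0.169 and 0.169), and that of Zfp523 also without shLAC replicate 1 (0.0589).

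On the lower side, Zfp341 was at 1.03 and 1 TPM in shCTCF, against 1.68 and 1.63 TPM in shLAC. Its human counterpart ZNF341 is known to drive transcription of STAT3. The coding-gene log2 fold change was -0.51 (SE 0.09, adjusted p = 0.0305), and both shCTCF values were lower than both shLAC values. Zfp948, a KRAB gene of the chromosome 17 cluster described below with 15 finger motifs, was at 5.21 and 4.79 TPM in shCTCF, against 6.25 and 5.43 TPM in shLAC. Its coding-gene log2 fold change was -0.36 (SE 0.07, adjusted p = 0.0398). Over all tested genes adjusted p was 0.092 for Zfp341 and 0.0927 for Zfp948. Both calls were lost without shCTCF replicate 1 (adjusted p 0.1 and 0.107) and without shCTCF replicate 2 (0.126 and 0.183), and that of Zfp948 also without shLAC replicate 2 (0.052). Zfp341 was named after its values were seen, since its mean TPM was below the 2 TPM set for the ranked lists, and Zfp786 and Zfp78 are extremes of their clusters.

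**Figure D2:**
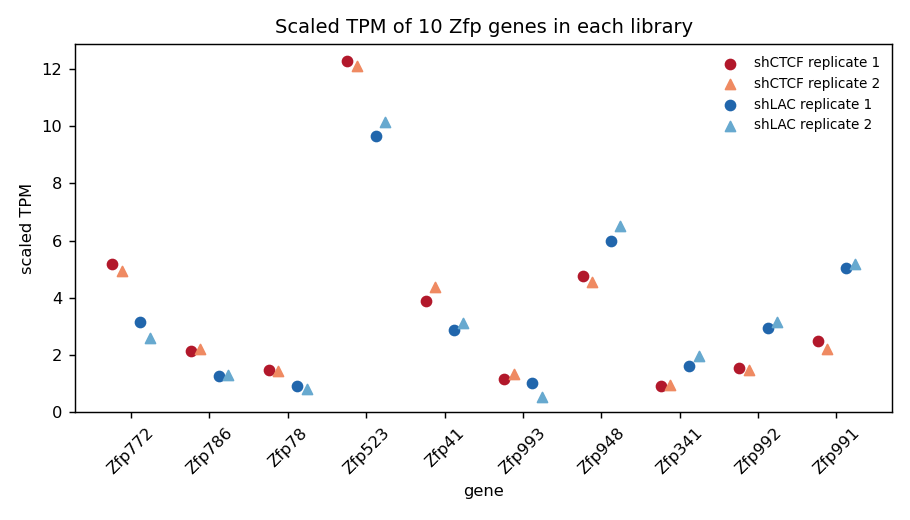
Scaled TPM of 10 Zfp genes in each library, with shCTCF libraries in red left of the shLAC libraries in blue, and circles and triangles for replicates 1 and 2. The shCTCF points lie above the shLAC points from Zfp772 to Zfp993 and below them from Zfp948 to Zfp991.

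Ranked by fold change among members with separated groups and a mean of at least 2 TPM, the highest after Zfp772 were Zfp41, Zfp523, Zfp579, Zfp941, Zfp811, Zfp90, Zfp809, Zfp768, Zfp704, Zfp536 and Zfp609. Of these, Zfp523 alone passed, and only in the coding-gene fit. Zfp41 was at 4.27 and 4.62 TPM in shCTCF, against 3.02 and 2.61 TPM in shLAC (log2 fold change 0.36, SE 0.08, adjusted p = 0.125). Zfp809, which silences murine leukaemia viruses through TRIM28 in embryonic stem cells, was at 3.02 and 2.54 TPM in shCTCF, against 2.21 and 1.69 TPM in shLAC (0.22, SE 0.08, adjusted p = 0.224). Zfp536, a negative regulator of neuronal differentiation, was at 4.65 and 4.46 TPM in shCTCF, against 4.15 and 2.62 TPM in shLAC (0.21, SE 0.10, adjusted p = 0.351). Zfp704 and Zfp609 had log2 fold changes of 0.21 and 0.18.

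The lowest after Zfp991 and Zfp992 were Zfp948, Zfp97, Zfp942, Zfp830, Zfp960, Zfp64, Zfp637, Zfp180, Zfp944 and Zfp275. None but Zfp948 passed in either fit. Zfp97 and Zfp960 lie close together on chromosome 17 and share 67.1% and 68.0% of their 101-base windows with other genes. Their summed scaled TPM was 4.64 and 4.27 in shCTCF, against 5.61 and 6.30 in shLAC, or 74.8% of the control. Zfp637 was the most abundant of this group, at 13.0 and 12.4 TPM in shCTCF against 15.5 and 11.3 TPM in shLAC. As deposited its groups overlapped, while on the scaled values both shCTCF libraries (11.8 and 11.7) lay below both shLAC libraries (14.9 and 13.6), with a log2 fold change of -0.25 (SE 0.06, adjusted p = 0.142).

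Of the 6 most abundant members, 0 passed the test, where 0.367% of all tested genes were called higher and 0.679% lower. Zfp488, a regulator of oligodendrocyte differentiation, was the highest, at 94.9 and 87.9 TPM in shCTCF, against 79.3 and 86.7 TPM in shLAC. Scaled, its shLAC values (76.1 and 104) enclosed its shCTCF values (86.6 and 83.6), and the 5 oligodendrocyte lineage markers together summed to no more than 80.2 TPM in any library. TPM do not show where on the gene its reads lie, and what this level of Zfp488 measures was not tested. Zfp207 (BuGZ), a microtubule-binding protein of the mitotic spindle, was at 48.1 and 42.5 TPM in shCTCF, against 47.4 and 36.2 TPM in shLAC. Scaled, it was at 43.8 and 40.4 TPM in shCTCF, against 45.4 and 43.5 TPM in shLAC, with overlapping groups and a log2 fold change of -0.08 (SE 0.06), which was 0.12 as deposited. Zfp365, a DISC1-binding protein, was at 32.0 and 30.9 TPM in shCTCF, against 29.7 and 22.8 TPM in shLAC. Zfp706, Zfp638 and Zfp445 followed, with mean levels below these. Zfp706 had a scaled log2 fold change of -0.18 (SE 0.05, adjusted p = 0.159), which became 0.01 without scaling.

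A list of 38 Zfp genes with described functions was examined by role, and 32 of them were tested. In either fit 0 passed. Of all tested genes 0.367% were called higher and 0.679% lower, and in the coding-gene fit 2.15% and 2.91% of coding genes. At an unadjusted p below 0.05 (limma), 4 were higher and 0 lower, where 20.0% of all tested genes passed in either direction. Of the 32, 18 were negative, and the median log2 fold change was -0.02. Among guardians of imprints, Zfp57 was at 7.44 and 7.47 TPM in shCTCF, against 7.14 and 6.71 TPM in shLAC, and Zfp445 was at 21.4 and 18.7 TPM in shCTCF, against 19.3 and 15.2 TPM in shLAC. Their scaled log2 fold changes were -0.09 (SE 0.09) and 0.02 (SE 0.06). Zfp143, a promoter-binding activator whose human counterpart ZNF143 is found together with CTCF at chromatin loops, was at 2.71 and 1.96 TPM in shCTCF, against 2.77 and 1.73 TPM in shLAC (-0.09, SE 0.14, adjusted p = 0.761). The GC-box binding factors Zfp148 and Zfp281 had log2 fold changes of 0.01 (SE 0.06) and -0.07 (SE 0.09).

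Other proteins of the list act on RNA or protein rather than DNA. Zfp598, the ubiquitin ligase that senses collided ribosomes, was at 6.36 and 5.85 TPM in shCTCF, against 5.28 and 4.06 TPM in shLAC (0.16, SE 0.05, adjusted p = 0.22). The RNA-binding proteins Zfp106, Zfp326 and Zfp346 had log2 fold changes of -0.07, 0.11 and -0.10 (SE 0.05 to 0.07). Among factors of neural development, Zfp335, mutated in human microcephaly as ZNF335, had a log2 fold change of 0.10 (SE 0.08), and Zfp462 and Zfp521 had -0.14 (SE 0.06) and -0.08 (SE 0.09), none past the test. Zfp592 and Zfp687, partners in a complex with ZMYND8, had log2 fold changes of 0.17 (SE 0.06, adjusted p = 0.233) and 0.00 (SE 0.06).

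The machinery through which KRAB zinc finger proteins act was measured with 33 genes, all tested. None passed in the fit over all tested genes or in the coding-gene fit, 16 were negative, and the median log2 fold change was 0.00. At an unadjusted p below 0.05, 3 were higher and 2 lower, where 20.0% of all tested genes passed in either direction. Sumo2, which encodes the SUMO modifier, was at 145 and 139 TPM in shCTCF, against 145 and 125 TPM in shLAC. Scaled, both shCTCF values of Sumo2 (131.9 and 132.3) lay below both shLAC values (139.2 and 150.4), with a log2 fold change of -0.13 (SE 0.06, adjusted p = 0.294). Chd3, a remodeller of the NuRD complex that binds modified TRIM28, was at 67.7 and 63.1 TPM in shCTCF, against 56.5 and 45.5 TPM in shLAC (0.16, SE 0.04, adjusted p = 0.165). C2H2 genes outside the Zfp names (BTB, SCAN, KLF, SP, EGR and related families) counted 129, of which 86 were tested. Among them 1 was higher and 1 lower, against 0.367% and 0.679% of all tested genes, and the median was 0.00. The coding-gene fit called 2 and 5 of them, against 2.15% and 2.91% of coding genes. Klf9, a hormone- and activity-responsive factor of neurons, fell to 18.5 and 17.1 TPM in shCTCF, against 26.6 and 21.1 TPM in shLAC (log2 fold change -0.59, SE 0.04, adjusted p = 0.0352). Zbtb45, a BTB zinc finger gene, was at 5.67 and 5.62 TPM in shCTCF, against 3.34 and 2.76 TPM in shLAC (0.55, SE 0.06, adjusted p = 0.0413). Both calls were lost without any 1 library, with adjusted p between 0.0683 and 0.241 for Klf9 and between 0.0994 and 0.302 for Zbtb45, and with the replicate number as a block (0.0896 and 0.0934). On TPM as deposited adjusted p was 0.523 for Klf9 and 0.00756 for Zbtb45. In the coding-gene fit it was 0.00596 for Klf9 and 0.0102 for Zbtb45. With 1 library left out of the coding-gene fit, log2 fold changes stayed between -0.61 and -0.56 for Klf9. For Zbtb45 they stayed between 0.54 and 0.59.

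By position, 202 of the 298 members lay in 45 groups of at least 2 within 500 kb of each other, and 96 stood alone. There were 17 clusters of at least 4 members, holding 134. The median log2 fold change was -0.04 in these clusters, -0.02 in groups of 2 or 3, and -0.02 among single members, with 82, 39 and 54 negative. The summed scaled TPM of a cluster was lowest at 77.7% of the control, on chromosome 4 (6 members). It was highest at 111%, on chromosome 7 near 4.9 Mb (6 members). That chromosome 7 cluster holds Zfp628, a member only through the shCTCF libraries, so part of its sum follows from selection. With 2 libraries against 2, an exact permutation test of a sum cannot give a two-sided p below 0.333, so the sums are given as levels alone.

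**Figure D3:**
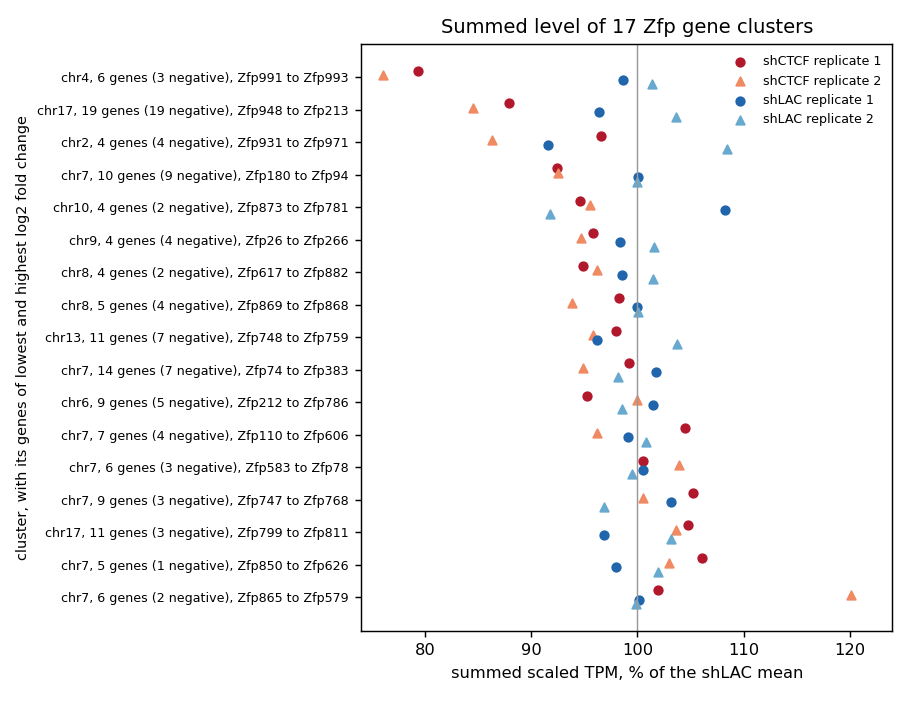
Summed scaled TPM of the 17 clusters of at least 4 expressed Zfp genes in each library, as a percentage of the cluster's shLAC mean, with shCTCF in red and shLAC in blue. The chromosome 4 and the largest chromosome 17 cluster lie farthest left, at 77.7% and 86.2% of the control.

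The chromosome 4 cluster (146449023 to 147848366) had its lower sum in the copies described above. Its summed scaled TPM was 13.9 and 13.3 in shCTCF, against 17.3 and 17.7 in shLAC. Besides Zfp991, Zfp992 and Zfp993 it holds Zfp982, Zfp984 and Zfp933, whose log2 fold changes were 0.09, -0.11 and 0.00. Zfp933 shares no 101-base window with another gene and was at 4.66 and 4.38 scaled TPM in shCTCF, against 4.52 and 4.49 in shLAC. Lower values were not limited to members. The noncoding gene Gm13166, which lies before the cluster, had a log2 fold change of -0.96 (SE 0.24, adjusted p = 0.146). It shares 12.3% of the windows of Zfp993 and 3.65% of those of Zfp991. Below the expression threshold, Zfp981, Zfp987 and Zfp988 were lower in both shCTCF libraries, while the groups of Zfp979 and Zfp534 overlapped. The part of read sharing in these values was not tested.

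The largest cluster, on chromosome 17 between 21008903 and 23599487, held 19 members, 15 of them with a KRAB core, and all 19 had negative scaled log2 fold changes, where 156 of the other 279 members were negative. The median was -0.16, from -0.36 in Zfp948 to -0.05 in Zfp213. The groups were separate and lower in shCTCF in 13 of the 19, and higher in 0, where 26.1% of all tested genes lay below. Zfp52 is a member only through the shLAC libraries, so its direction follows from its selection. Without Zfp52, 18 of 18 were negative with a median of -0.13, 12 were separate and lower, and the sum was 86.5% of the control. The summed scaled TPM was 62.0 and 59.6 in shCTCF, against 67.9 and 73.0 in shLAC, or 60.8 ± 1.71 and 70.5 ± 3.60 (SD, n = 2 each). No single gene of the cluster passed over all tested genes, and Zfp948 alone passed in the coding-gene fit.

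Zfp942 was the most abundant of the cluster, at 6.28 and 5.68 scaled TPM in shCTCF against 7.13 and 8.04 in shLAC (-0.30, SE 0.08, adjusted p = 0.167). Zfp52 was at 0.793 and 0.923 scaled TPM in shCTCF against 1.12 and 1.29 in shLAC. Zfp944 was at 3.10 and 2.67 scaled TPM in shCTCF against 3.43 and 3.76 in shLAC. In these 3 genes the groups were separate. At the other end, Zfp213 was at 1.88 and 1.95 scaled TPM in shCTCF against 1.88 and 2.14 in shLAC, and Zfp983 was at 2.28 and 2.41 in shCTCF against 2.28 and 2.63 in shLAC, where the groups met or overlapped. The cluster's genes share few reads, with at most 5.27% of 101-base windows in common with other genes (Zfp994).

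The size of this shift depends on the scale and on the libraries. As deposited, the sum was 99.3% of the control and 8 of the 19 genes (7 of 18 without Zfp52) were negative, with a median of 0.01. All genes had a median of 0.17 on that scale, and 19 of 19 lay below it. With 1 library left out, 19 (without shCTCF replicate 1), 18 (without shCTCF replicate 2), 19 (without shLAC replicate 1) and 16 (without shLAC replicate 2) of the 19 were negative, with medians between -0.17 and -0.10. The 28 other tested protein-coding genes within 1000 kb of the cluster had a median of 0.04, with 12 negative. Of these, Ppp2r1a alone lies before the cluster, and the others lie beyond its far end, from 23668614 on. The flank thus describes mainly that far side. Inside the cluster only 1 other tested protein-coding gene was found, the predicted Gm10226, with a log2 fold change of -0.27 (SE 0.31).

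**Figure D4:**
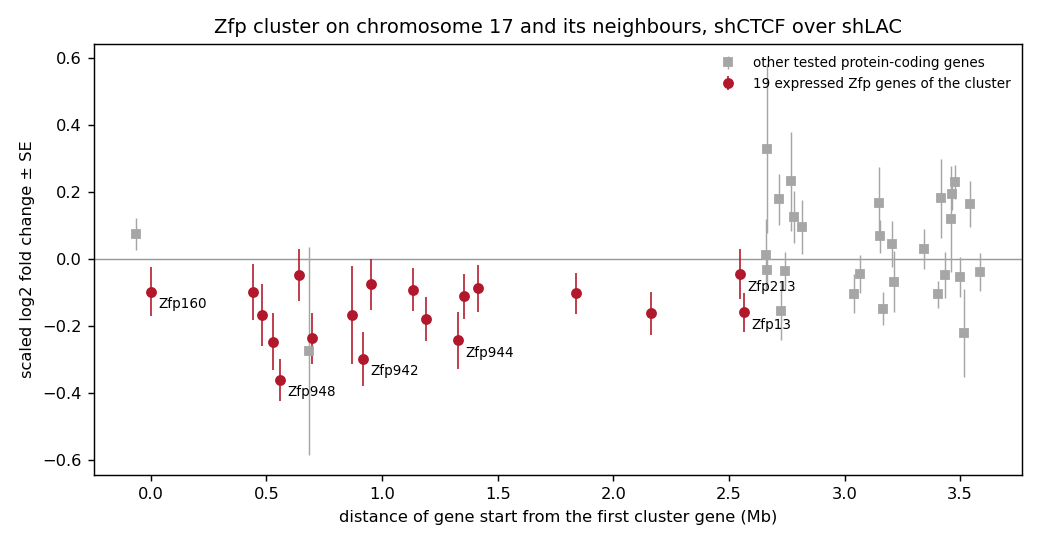
Scaled log2 fold change (shCTCF over shLAC) with its standard error against the distance of each gene start from the first gene of the chromosome 17 cluster, in Mb. The 19 Zfp genes (red circles) all lie below 0. The other tested protein-coding genes (grey squares) lie above and below 0, with 12 of the 28 flanking ones below it. Of the flanking ones, Ppp2r1a alone lies before the cluster.

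Other clusters moved less. The chromosome 7 cluster between 24081924 and 24515682 had 9 of 10 negative genes and a sum of 39.5 scaled TPM in each shCTCF library, against 42.7 in each shLAC library, or 92.4% of the control. Zfp180 was its lowest gene, at 8.01 and 7.22 scaled TPM in shCTCF against 9.36 and 9.05 in shLAC, and Zfp94 its highest, with a log2 fold change of 0.11. On chromosome 2 near 177 Mb all 4 genes were negative with a median of -0.12, and on chromosome 9 near 20 Mb all 4 with a median of -0.07. In the chromosome 7 cluster from 4915217 to 5053723, the sum was 16.2 and 19.03 in shCTCF against 15.9 and 15.8 in shLAC. This sum includes Zfp628, at 1.03 and 1.14 TPM in shCTCF against 0.77 and 0.70 TPM in shLAC. Zfp628 is a member only through the shCTCF libraries, so its direction follows from its selection, and the sum without it is not given. Zfp579 was the highest gene of this cluster (0.26, SE 0.09, adjusted p = 0.22). The second chromosome 17 cluster, from 32765496 to 33631779, had 3 of 11 negative genes and 104% of the control.

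Zfp781 shares most of its sequence with another gene. It was at 2.29 and 2.17 TPM in shCTCF, against 4.49 and 0.00 TPM in shLAC, with 92.4% of its windows shared, 89.8% with Gm3055. Summed with Gm3055 its scaled level was 6.35 and 6.28 in shCTCF, against 6.23 and 5.43 in shLAC. The part of read sharing in its 2 unequal shLAC values was not tested. Over all members, 210 shared no 101-base window with another gene, 32 shared at least 10% and 11 at least 50%. The median log2 fold change was -0.02 in the first class with 121 negative, -0.05 in the second with 20 negative, and 0.01 in the third, which lies within the second, with 4 negative. Zfp617 and Zfp882 overlap on the same strand of chromosome 8, so their opposite log2 fold changes of -0.18 and 0.17 cannot be assigned with certainty.

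Promoters were read from RefSeq (GRCm38.p6) as the 250 bases upstream of each annotated start, and 250 members had at least 1, giving 300 promoters. The 2 printed here belong to the highest-ranked member and to the lowest-ranked member of the chromosome 17 cluster, and neither overlaps an annotated exon. Zfp772 is at chr7:7209999-7210248 on the − strand, Zfp948 at chr17:21566728-21566977 on the + strand, and capitals mark CG dinucleotides.
Zfp772: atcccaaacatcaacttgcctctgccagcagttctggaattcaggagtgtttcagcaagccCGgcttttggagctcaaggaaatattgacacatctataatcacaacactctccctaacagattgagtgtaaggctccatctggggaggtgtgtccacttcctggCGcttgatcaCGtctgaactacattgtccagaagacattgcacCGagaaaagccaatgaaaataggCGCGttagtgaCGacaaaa
Zfp948: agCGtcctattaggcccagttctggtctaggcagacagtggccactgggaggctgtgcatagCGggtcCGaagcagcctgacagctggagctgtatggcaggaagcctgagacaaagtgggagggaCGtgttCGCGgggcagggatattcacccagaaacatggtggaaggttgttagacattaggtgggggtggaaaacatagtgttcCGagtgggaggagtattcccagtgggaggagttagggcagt
Both held 7 CG dinucleotides, against a median of 12 in the members' promoters, 8 in the chromosome 17 cluster and 6 in all promoters. Here 6 letter strings were searched on both strands, some of them shortened from longer forms searched before. A string for the core of the CTCF motif, CCANNAGGG, occurred in 13 of the 300 promoters (4.33%) and in 5.07% of all 32851 promoters, and in 0 of 17 promoters of the chromosome 17 cluster. The string ACTACAA, known from the binding site of ZNF143, occurred in 19 of the 300 (6.33%) and 2.81% of all, and in 0 of the 17. The ETS string GGAAGTG occurred in 57 of the 300 and 8.55% of all, and in 4 of the 17. The NRF1 string GCGCATGCG occurred in 12 of the 300 and 1.45% of all, the YY1 string CCGCCATNT in 8 of the 300 and 0.849% of all, and the CRE string TGACGTCA in 7 of the 300 and 1.55% of all. No string contains another. The search was not matched for the higher CG content of the members' promoters. A match is a run of letters and not a site, and no match says only that these letters are not in this window.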

How the data were processed

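Total RNA was taken with TRIzol, and gel-selected fragments near 300 bp gave paired 101-base reads on a HiSeq instrument, per the labels' protocols. The authors deposited 1 file of TPM per library. The submitters' processing notes list CASAVA, RSEM 1.2.28 and mm10; the sources used here give no annotation, settings or strandedness. Symbols, positions and coding sequences came from GENCODE vM21 (GRCm38), which matched 37060 of 37437 identifiers. RSEM divides reads among similar copies by estimation, so values of near-identical genes can be exchanged, and overlapping genes cannot be told apart where strand was not used.

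Genes at 1 TPM or more in at least 2 libraries (12816) were tested with limma 3.58.1 in R 4.3.3 on log2(median-ratio scaled TPM + 1), without covariates, with a trended prior and Benjamini-Hochberg adjustment over all of them at 0.05. TPM are not counts, so no count test was run. Alternatives were other scalings, pseudocounts, filters and distances, a threshold of 0.1, protein-coding genes of at least 300 nucleotides only, a block for the replicate number and fits without 1 library, where the lone library is assumed to vary like the other group. Members, lists and tests were chosen with earlier results of these data known. Named were the called members, the 12 largest changes per direction with separate groups and a mean of at least 2 TPM, the 6 most abundant, cluster extremes, a list of described functions and up to 4 members of other lists, the 2 most abundant where none was called. Finger and KRAB motifs, shared windows of 101 bases and promoter strings were counted in annotated sequence.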

Additional observations from a re-analysis of the deposited data

How the results depend on the processing

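The count of members called moved with several choices. Over all tested genes it was 0 higher and 2 lower, where 0.367% of genes were higher and 0.679% lower. With TPM as deposited it was 3 and 2 (1.92% and 0.905% of all tested genes). In the coding-gene fit it was 4 and 4 (2.15% and 2.91% of coding genes). Among genes with a mean of at least 2 TPM it was 0 and 1 (0.317% and 0.624%). Without a filter it was 0 and 0 (0.0428% and 0.0535%), and at an adjusted p below 0.1 it was 3 and 4 (1.75% and 2.44%). Leaving out 1 library gave 0 to 1 higher and 0 lower over all tested genes, and 0 to 7 higher and 2 to 9 lower in the coding-gene fit. The single higher call was Zfp781 without shLAC replicate 1. The replicate numbers were examined for pairing, and deviations of same-numbered libraries from their group means correlated at 0.0817. With 2 libraries a group this cannot show whether same-numbered libraries shared a culture or batch, which no label states. With the number as a block, 0 members were called higher and 0 lower over all tested genes (0.109% called in either direction), and 5 higher and 8 lower in the coding-gene fit, where 9.89% of coding genes were called. The fits of the coding genes with a block or with a library left out were added after seeing the data. The median member log2 fold change was 0.13 as deposited, where all genes had 0.17, and lay between -0.0315 and -0.0131 with 1 library left out over all tested genes and between -0.0287 and -0.0043 in the coding-gene fit, with -0.0166 and -0.0141 without shCTCF replicate 2. Scaling to the upper quartile and pseudocounts of 0.5 and 0.1 also gave 0 higher and 2 lower. Of all 12816 tested genes, 47, 47 and 49 were then higher and 88, 85 and 93 lower. As deposited, on a scale that places the median gene at 0.17, 139 of the 175 negative members were positive, 32 of them among the 83 named members, and 0 went the other way. Those 32, none of which passed over all tested genes or in the coding-gene fit, were Zfp617 (0.0022), Zfp706 (0.011), Zfp747 (0.0163), Zfp799 (0.0306), Zfp521 (0.0384), Zfp931 (0.0409), Zfp869 (0.0448), Zfp462 (0.0452), Zfp143 (0.0468), Zfp638 (0.0714), Zfp865 (0.073), Zfp26 (0.0774), Zfp346 (0.079), Zfp110 (0.0872), Zfp213 (0.0908), Zfp583 (0.0911), Zfp422 (0.0915), Zfp57 (0.0939), Zfp219 (0.105), Zfp281 (0.109), Zfp850 (0.118), Zfp106 (0.121), Zfp207 (0.124), Zfp644 (0.124), Zfp384 (0.13), Zfp189 (0.133), Zfp488 (0.138), Zfp266 (0.15), Zfp932 (0.165), Zfp91 (0.172), Zfp664 (0.173), Zfp971 (0.18). With scaling to the upper quartile Zfp971 (1e-04) reversed. With 1 library left out, 20 named members that passed in neither fit of all 4 libraries took the other sign at least once, with ranges over the 4 fits of Zfp57 (-0.189 to 0.0146), Zfp91 (-0.093 to 0.0557), Zfp143 (-0.225 to 0.0489), Zfp148 (-0.0582 to 0.0767), Zfp189 (-0.101 to 0.0759), Zfp213 (-0.106 to 0.0151), Zfp219 (-0.101 to 0.0017), Zfp266 (-0.113 to 0.0302), Zfp277 (-0.0465 to 0.0725), Zfp281 (-0.178 to 0.0314), Zfp292 (-0.0082 to 0.0369), Zfp445 (-0.042 to 0.0812), Zfp488 (-0.287 to 0.157), Zfp583 (-0.135 to 0.0244), Zfp664 (-0.0734 to 0.0485), Zfp687 (-0.0167 to 0.0164), Zfp781 (-0.801 to 1.61), Zfp850 (-0.0383 to 0.0029), Zfp865 (-0.166 to 0.0233), Zfp971 (-0.0668 to 0.0586). The chromosome 4 cluster sum was 89.2% of the control as deposited. When genes had to lie within 250 kb, the group compared was Zfp982, Zfp984 and Zfp933 alone, at 99.2% of the control. That group holds none of Zfp991, Zfp992 and Zfp993, so its sum covers different genes and is not the same sum moved. The cause of these movements was not tested. Depth is unknown for these files, 68 members averaged below 2 TPM, and 2 libraries per group limit which changes can pass.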
